A study of Homo sapiens with 6 samples.

Results

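The genes encoding the 2 chaperonins of human cells were looked up in the N-Myc and JMJD6 binding lists of CHP-134 cells. They are the subunits of the cytosolic chaperonin CCT, also called TRiC (TCP1, CCT2, CCT3, CCT4, CCT5, CCT6A, CCT7 and CCT8), and the mitochondrial chaperonin HSP60 with its co-chaperonin HSP10 (HSPD1 and HSPE1). They were chosen by name and not by a rule on measured values, though with earlier results of these data known. They make up 10 of the 20136 coding genes looked up in the same way. A gene counted as listed when a deposited promoter, enhancer or super-enhancer region carried its symbol, and otherwise as not listed.

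CHP-134 is a neuroblastoma cell line, and 1 such line was studied, grown in serum-containing medium. Chromatin immunoprecipitation and sequencing was carried out with an antibody against N-Myc (sc-53993) in 3 replicates and with an antibody against JMJD6 (ab64575), a jumonji domain protein, in 3 replicates. The comparison addressed which regulatory regions carry N-Myc, JMJD6 or both. Chromatin for N-Myc was cross-linked with formaldehyde, and chromatin for JMJD6 with DSG and then formaldehyde, so that antibody and cross-linking cannot be told apart. The lists hold peaks found in all 3 replicates of an antibody (10172 common peaks for N-Myc and 561 for JMJD6) and the regions they fall in. No list has a height, a count or a column per replicate, so no peak has a depth of its own beyond the minimum number of reads that the study states for a sample, and no spread between replicates can be given. Intervals below are exact (Clopper-Pearson) 95% intervals, which treat the genes or peaks as independent and cover counting error only. Of 9 marker genes of adrenergic neuroblastoma cells, 7 were named on an N-Myc enhancer (among them GATA3, HAND2 and ISL1). On a super-enhancer 3 were named, and on a listed promoter 0. Across all coding genes 32.5% were named on an N-Myc enhancer or super-enhancer and 1.33% on a super-enhancer of any list. An N-Myc promoter was listed for 17.5%, and 9 genes are too few to read 0 against that share. Expression itself was not measured.

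Chaperonins are barrel-shaped machines that enclose an unfolded protein and release it folded at the cost of ATP. CCT is a double ring of related subunits, each from its own gene, and is needed to fold actin and tubulin. HSP60 folds proteins imported into the mitochondrial matrix, with HSP10 as the lid of its chamber. N-Myc binds DNA as a dimer with MAX, preferring the E-box CACGTG and tolerating related hexamers. Heat shock factors bind inverted repeats of GAA and TTC, and chaperone genes are their classical targets.

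N-Myc peaks lay at most of the chaperonin promoters, and JMJD6 peaks lay at none of them. Of the 10 genes, 8 had a promoter in the N-Myc list, or 80% (95% CI 44.4 to 97.5%), and across all coding genes 17.5% did (3533 genes). The bound genes were CCT2, CCT3, CCT4, CCT5, CCT7, CCT8, HSPD1 and HSPE1, that is 6 of 8 CCT subunits and both mitochondrial genes. TCP1, which encodes the alpha subunit of CCT, and CCT6A, which encodes the zeta subunit, were not listed. In the JMJD6 list the count was 0 of 10 (95% CI 0 to 30.8%), against 0.626% of all coding genes (126 genes), a background too low to be read in 10 genes. The list of promoters bound by both proteins held 0 of the 10 and 0.298% of all coding genes, which is again too few to read.

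The bound promoters carried 8 common peaks. CCT3 had 2 peaks, and HSPD1 and HSPE1, which are transcribed away from each other, shared 1. The hexamer CACGTG was in 0 of the 8 peaks (95% CI 0 to 36.9%), whereas 36.9% of the 3550 N-Myc peaks at listed promoters held it (1309 peaks). The upper limit of the interval thus reaches the share of all promoter peaks. Related hexamers were present in 5 of the 8 peaks, and the site nearest each peak centre is shown for these, because these are the E-box-like letters that lie under the N-Myc peaks. The capitals mark the hexamer, read 5′ to 3′ on the strand of the chaperonin gene (GRCh37), and a hexamer that lies on the opposite strand appears as its reverse complement:
CCT2, CATGTG: cccggccctccgCACATGgtgcgagccatg
CCT3 peak 1, CACGAG: catcgtccagtgCTCGTGctcagtgagttc
CCT3 peak 2, CATGTG: aggtctttccccCATGTGctggctggagtc
CCT5, CACGCG: cgtcttgtgctgCGCGTGcgcaagcttttg
CCT8, CACGCG: cttccgagcggtCGCGTGaactgcttcctg

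The CCT2 site lay at chr12:69979422-69979427 in an intron, 28 bp downstream of the peak centre. The CCT3 sites lay at chr1:156307949-156307954, in a coding exon 30 bp from the centre of the first peak, and at chr1:156308528-156308533, in an intron of the neighbouring gene TSACC, 46 bp from the centre of the second. The CCT5 site at chr5:10250352-10250357 was 37 bp upstream of the start site and 108 bp from the peak centre. The CCT8 site at chr21:30445934-30445939, in the untranslated region, was 88 bp from the centre, and CCT8 had another CACGCG, reading the same way, in the same peak. Of the 5 hexamers searched on both strands, the canonical one and the 4 variants named in the next paragraph, none was found in the peaks of CCT4, CCT7 or HSPD1/HSPE1.

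Taken by hexamer, CACGCG was in 2 of the 8 peaks (29.2% of all promoter peaks), CATGTG in 3 (22.5%), CACGAG in 2 (25.2%) and CATGCG in 2 (19%). At least 1 of these 4 variants was in 5 of the 8 peaks, and in 66.4% of all promoter peaks. As far as 8 peaks can show, the variants were about as frequent in the chaperonin peaks as in promoter peaks at large. With the canonical form counted as well, the shares were 5 of 8 and 81.6%. Within 100 bp of the peak centre the canonical hexamer was in 0 of the 8 peaks and 23.1% of all promoter peaks. Among the 2648 promoter peaks within the chaperonin peaks' range of widths, 36.4% held CACGTG, a comparison added after seeing the data.

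The peaks lay close to the start sites and were of ordinary width. Widths had a median of 505 bp over the 8 peaks, and 452 bp over all promoter peaks. Among genes with a promoter peak of at least 418 bp, the median of all N-Myc peaks, were 5 of the 10 (CCT2, CCT3, CCT4, CCT5 and CCT8) and 10.5% of all coding genes. The start site of each gene is that of its canonical transcript, and positive distances are downstream.

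CCT2, the beta subunit, had the widest peak, 873 bp at chr12:69978961-69979833, at the 92.8th percentile of promoter peaks. It covered both listed start sites of the gene and was centred 158 bp downstream of the canonical one. The listed promoters of MIR3913-1 and MIR3913-2, a pair of microRNA genes, overlapped the same peak.

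CCT3, the gamma subunit, had a 635 bp peak at chr1:156307605-156308239 over its start site, centred 161 bp downstream, and a 395 bp peak at chr1:156308288-156308682, centred 402 bp upstream. The gap between the peaks was short, and both overlapped the listed promoters of CCT3 and of TSACC, a gene on the opposite strand that encodes a co-chaperone of a testis-specific kinase. The start sites of CCT3 and TSACC were 234 bp apart.

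CCT4, the delta subunit, had a 576 bp peak at chr2:62115199-62115774, which was the only one of the 8 that covered no listed start site. Its near edge was 17 bp inside the gene and its centre 304 bp downstream of the start site, in an intron. It also overlapped the listed promoter of COMMD1, which encodes a regulator of copper handling and NF-κB.

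CCT5, the epsilon subunit, had a 570 bp peak at chr5:10250178-10250747, centred 71 bp downstream of the start site in a coding exon. The gene listed on the other strand was FAM173B, now called ATPSCKMT, which encodes a mitochondrial lysine methyltransferase, with its start site 392 bp away.

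CCT7, the eta subunit, had a 355 bp peak at chr2:73461220-73461574, centred 39 bp upstream of the start site. PRADC1 was listed on the opposite strand. CCT8, the theta subunit, had a 440 bp peak at chr21:30445805-30446244, centred 56 bp upstream, and was alone under its peak.

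HSPD1 and HSPE1 shared the narrowest peak, 315 bp at chr2:198364644-198364958, at the 18.4th percentile. It lay between the start sites of the genes, which were 539 bp apart, with its edges 80 bp from that of HSPD1 and 145 bp from that of HSPE1. The peak also overlapped the listed promoter of HSPE1-MOB4, a readthrough transcript that begins at HSPE1, so that 1 peak is counted for 3 gene names.

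**Figure D1:**
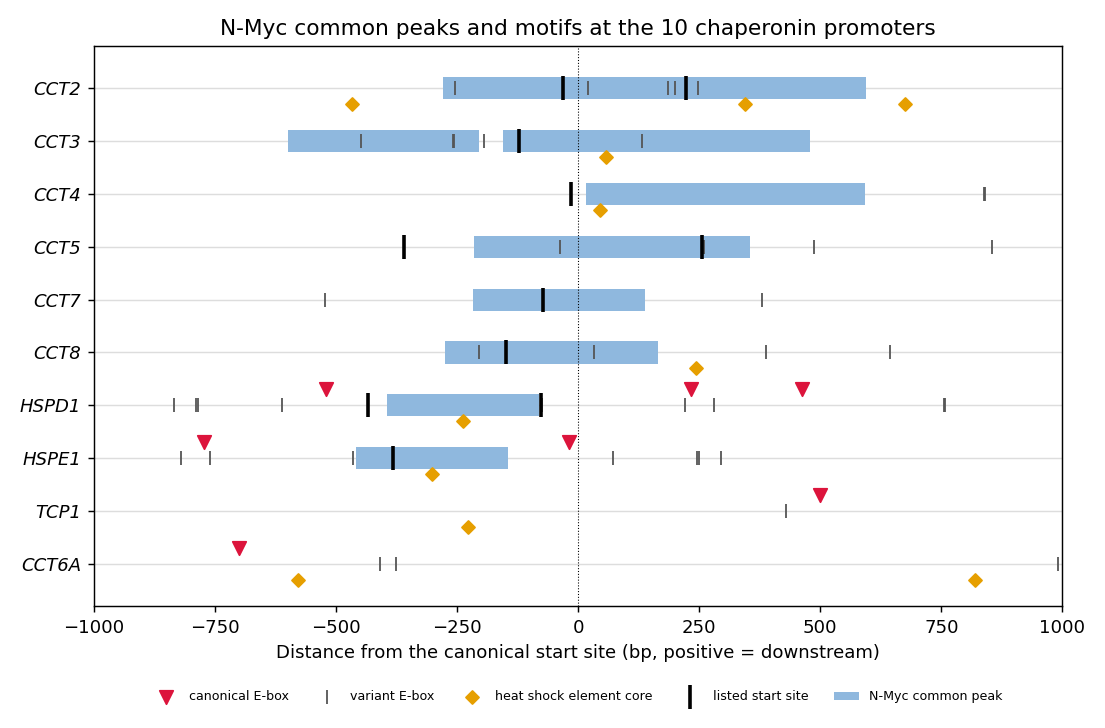
N-Myc common peaks (blue bars), start sites of the deposited promoter list (black bars), canonical E-boxes (red triangles), variant E-boxes (grey ticks) and heat shock element cores (orange diamonds) within 1000 bp of the canonical start site of each chaperonin gene, on the strand of the gene; the x axis is distance in bp. No red triangle falls on a blue bar, and TCP1 and CCT6A have a triangle each and no bar.

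**Figure D2:**
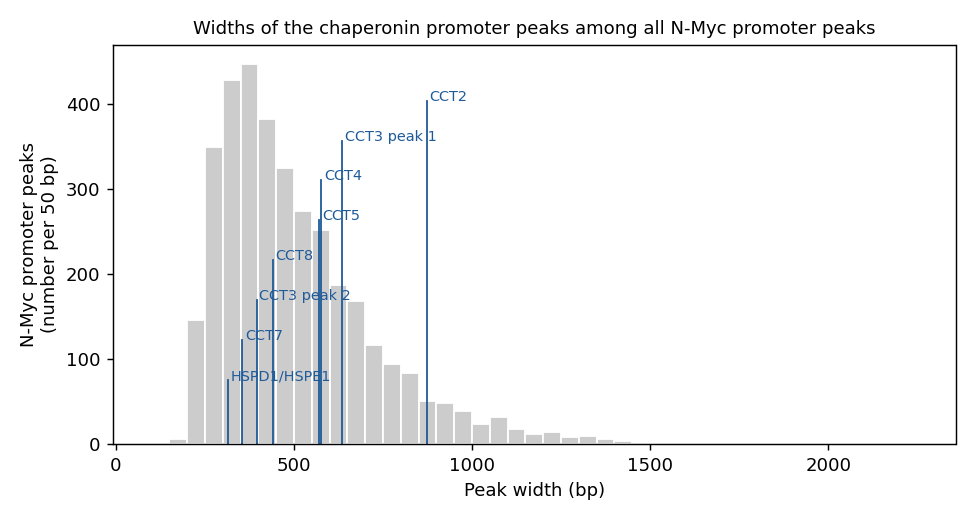
Widths in bp of the 3550 N-Myc peaks that overlap a listed promoter (grey, number per 50 bp) with the 8 chaperonin peaks marked by blue lines, whose heights carry no value. The chaperonin peaks run from 315 bp for HSPD1/HSPE1 to 873 bp for CCT2, around a median of 452 bp for all promoter peaks.

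Most of the peaks overlapped listed promoters on both strands. This held for 7 of the 8 peaks and for 22% of all promoter peaks. The exception was CCT8. Both CCT3 peaks are counted, and at CCT2 the only other listed promoters were those of the microRNA pair. A listed start site lay inside 7 of the 8 peaks and inside 56.7% of all promoter peaks. The peaks were rich in G and C, at 56.7 to 63.8%, where the quartiles of all promoter peaks were 54.39 and 61.82%. The ratio of observed to expected CpG had a median of 0.8166 in the chaperonin peaks and 0.7291 in all promoter peaks.

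A coding gene starting on the opposite strand within 1 kb was present for 6 of the 10 genes (TCP1, CCT3, CCT5, CCT6A, HSPD1 and HSPE1) and for 9.95% of all coding genes. Among coding genes with such a neighbour 38.4% were in the N-Myc list, and 4 of these 6 were. HSPD1 and HSPE1 are each other's neighbour and share 1 peak, so these counts do not rest on independent genes. Of all coding genes in the N-Myc list 21.8% had such a neighbour. Of the listed chaperonin genes CCT3, CCT5, HSPD1 and HSPE1 had one, and CCT2, CCT4, CCT7 and CCT8 did not. This measure is the distance between start sites, and it differs from the overlap of a peak with listed promoters. CCT4 and CCT7 thus had no such neighbour, though their peaks overlapped the listed promoters of COMMD1 and PRADC1. The unlisted pairs were TCP1 with MRPL18, a mitochondrial ribosomal protein gene that starts 865 bp away, and CCT6A with PSPH, the phosphatase of the last step of serine synthesis, which starts 321 bp away. In both pairs the neighbour was not listed either. This follows from the absence of any N-Myc peak near TCP1 or CCT6A, given below, and is not a separate result.

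TCP1 and CCT6A had no N-Myc peak near them. The nearest peak was 62.56 kb from the start site of TCP1, at the promoters of SOD2 and WTAP, and 54.59 kb from that of CCT6A, at the promoter of CHCHD2. No common peak of either antibody lay anywhere in the 2 genes. By exact match, every stretch of 75 bases within 1 kb of the start site occurred once in the genome for TCP1 and for CCT6A. For the bound genes the share of such stretches ranged from 88.9% (CCT3) to 100%. Inexact matches were not counted, and the placement of reads was not tested. Absence from a list of peaks common to 3 replicates says only that no common peak was called, and binding in fewer replicates or under the q-value threshold would not appear.

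The canonical E-box occurred near both listed and unlisted chaperonin genes. Within 1 kb of the start site CACGTG occurred in TCP1, CCT6A, HSPD1 and HSPE1, and in 29.2% of coding genes. Over all coding genes 28.2% of those with CACGTG in this window were in the N-Myc list, and 13.1% of those without. Among the chaperonin genes 2 of the 4 with the hexamer and 6 of the 6 without it were listed. Within 250 bp of the start site the hexamer occurred in HSPD1 and HSPE1 alone. There 2 of the 2 genes with it and 6 of the 8 without it were listed, against 30.9% and 15.9% of coding genes. In both windows the listed genes with the hexamer were HSPD1 and HSPE1, which share 1 peak. No order can therefore be read from the chaperonin genes. The canonical sites are shown, with the hexamer in capitals and on the strand of the gene named, because they are the perfect E-boxes that lay outside common peaks:
TCP1, in an intron 500 bp downstream of the start site: ctcccgggctcgCACGTGcgggccacgcct
CCT6A, 700 bp upstream, in an intron of PSPH: aaagtaaaatacCACGTGttactgaatccc
HSPD1, in an intron 462 bp downstream: cggaaagaaggaCACGTGggctcgcgccga
HSPD1, in an intron 234 bp downstream: tgcgggttccatCACGTGcgacgcggatcc
HSPE1, 19 bp upstream: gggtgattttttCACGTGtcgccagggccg

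The sites were at chr6:160210131-160210136, chr7:56118755-56118760, chr2:198364099-198364104, chr2:198364327-198364332 and chr2:198365081-198365086. The last 2 stand on either side of the HSPD1/HSPE1 peak, and the one beside HSPE1 was 122 bp from the edge of the peak. That distance was at the 4.11th percentile of the 2240 promoter peaks without a canonical hexamer, excluding 1 mitochondrial peak. For the other chaperonin peaks the nearest CACGTG was 1362 bp (CCT7) to 15279 bp (CCT2) from the edge, and the median of all such peaks was 3032 bp.

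Cores of the heat shock element occurred in several of the peaks. The core GAANNTTC was in 4 of the 8 peaks (CCT2, the first CCT3 peak, CCT4 and HSPD1/HSPE1) and in 10.1% of all promoter peaks. Within 100 bp of the peak centre it was in 1 of the 8 peaks, HSPD1/HSPE1, and in 4.2% of all promoter peaks. Within 250 bp of the start site it was in 5 of the 10 genes (TCP1, CCT3, CCT4, CCT8 and HSPD1) and in 8.68% of all coding genes, and within 1 kb in 8 of 10 and 35%. In the HSPD1/HSPE1 peak the core sat at the peak centre, 237 bp upstream of the HSPD1 start site. The 4 sites are shown on the strand of the gene (HSPD1 for the shared peak), with the core in capitals:
CCT2, chr12:69979580-69979587, intron: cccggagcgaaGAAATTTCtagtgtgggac
CCT3, chr1:156308022-156308029, untranslated region: ctctctctccaGAAGGTTCtgccggttccc
CCT4, chr2:62115741-62115748, untranslated region: gccgctttctgGAAGGTTCgtgaaggcagt
HSPD1/HSPE1, chr2:198364797-198364804, between the genes: ggcattttctgGAAAGTTCtggaaccgagc

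The opposite arrangement, TTCNNGAA, was looked for after these sites had been seen. It was in 3 of the 8 peaks (CCT4, CCT5 and HSPD1/HSPE1) and in 11.8% of all promoter peaks. In CCT4 and in HSPD1/HSPE1 a TTCNNGAA overlapped the core on each side, which gave runs of 4 alternating units; the flanking letters of the sequences above show them. Such runs were in 3 of the 3550 promoter peaks, or 0.0845%, and 2 of the 3 were chaperonin peaks. The third was at CHORDC1, which encodes a co-chaperone of HSP90. Within 1 kb of the start site a run was found at 18 of 20136 coding genes, 3 of them chaperonin genes (CCT4, HSPD1 and HSPE1, the last 2 with the same run). The readthrough HSPE1-MOB4 was also among the 18, through the run of HSPD1 and HSPE1. Runs were looked for, and CHORDC1 was named, after the values had been seen. A match to these letters is a description of the sequence, and binding by a heat shock factor was not measured.

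Of the other motifs counted on both strands, the SP1 box GGGCGG was in 5 of the 8 peaks (57.6% of all promoter peaks), CCAAT in 4 (48.5%) and the ETS site CCGGAAGT in 1, that of CCT2 (9.89%). The NRF1 site GCGCATGCG was in 0 of the 8 peaks (4.2%) and the YY1 site AAGATGGCG in 0 (4.06%). Within 1 kb of the start site, GGGCGG was present in 81.5% and CCAAT in 87.1% of coding genes, CCGGAAGT in 9.17%, GCGCATGCG in 3.98% and AAGATGGCG in 5.12%.

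**Figure D3:**
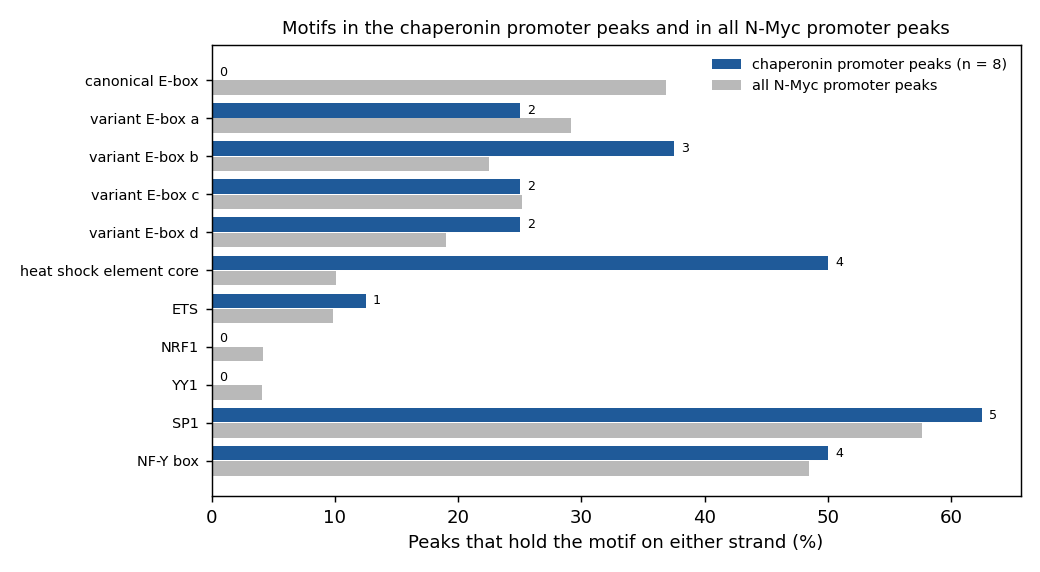
Share in percent of the 8 chaperonin promoter peaks (blue, with the number of peaks) and of all 3550 N-Myc promoter peaks (grey) that hold each motif on either strand; variants a to d are the 4 related E-box hexamers in the order of the text. The canonical E-box is in 0 chaperonin peaks and 36.9% of all promoter peaks, and the heat shock element core in 4 of 8 and 10.1%.

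JMJD6 was far from every chaperonin gene. The nearest JMJD6 common peak was 283.4 kb from the start site of CCT3, the closest of the 10, and 43610 kb from that of TCP1, the farthest. No JMJD6 peak overlapped any of the 8 N-Myc peaks. The list holds 561 JMJD6 peaks over the genome, so long distances are the rule for most genes. The nearest super-enhancer bound by N-Myc was 1266 kb from CCT7, the closest, and super-enhancers of any list named 0 of the 10 genes and 1.33% of all coding genes. Neither count can be read as a feature of 10 genes.

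**Figure D4:**
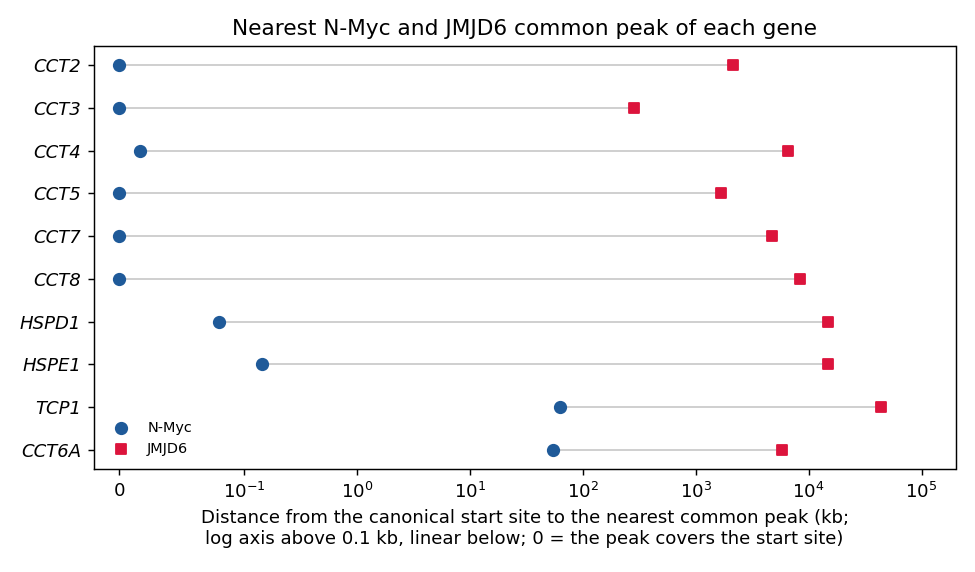
Distance in kb from the start site of each chaperonin gene to the nearest N-Myc (circles) and JMJD6 (squares) common peak, on an axis that is logarithmic above 0.1 kb and linear below. The 8 listed genes have an N-Myc peak within 0.145 kb, TCP1 and CCT6A one at 62.56 and 54.59 kb, and every JMJD6 distance is 283.4 kb or more.

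The N-Myc enhancers naming a chaperonin gene mostly lay over its own promoter. A gene counted here when it was among the nearest genes, 2 at most, that the authors' GREAT assignment gave to an N-Myc-bound enhancer or super-enhancer. This held for 6 of the 10 genes, or 60% (95% CI 26.2 to 87.8%), and for 32.5% of all coding genes (6548 genes). The 6 were CCT2, CCT3, CCT4, CCT5, CCT7 and CCT8. All of them had an N-Myc promoter, so this count is not separate from the promoter count. Among coding genes with an N-Myc promoter but no JMJD6 promoter or super-enhancer, 2465 were named on an N-Myc enhancer and 914 were not. Enhancers bound by JMJD6, or by both proteins, named 0 of the 10 and 0.909% of all coding genes.

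The authors subtracted H3K27ac peaks within 1 kb of a start site before they stitched the rest into enhancers, and the stitched regions could still extend over start sites. There were 7 enhancers naming a chaperonin gene, and 6 of them lay over the promoter of the gene itself and held its promoter peak. Their lengths ran from 1.644 kb (CCT2) to 6.332 kb (CCT8), against a median of 2.553 kb for all 4649 N-Myc enhancers, of which 52.8% overlapped a listed N-Myc promoter. The seventh was the only distal one. It was a 2.443 kb region at chr2:62080508-62082950 that named FAM161A and CCT4, with an N-Myc peak of 1084 bp centred 33.78 kb downstream of the CCT4 start site. That peak overlapped the promoter of FAM161A, a gene for a ciliary protein, and held 1 CACGTG.

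HSPD1 and HSPE1 were not named on an enhancer but lay under one. A 20.21 kb enhancer at chr2:198362204-198382411 covered both promoters and held their shared peak, and named MOB4 and a readthrough gene. With enhancers counted by overlap with the gene or the 1 kb beside it, and not by name, 8 of the 10 genes had one, as did 24.7% of all coding genes, and TCP1 and CCT6A had none.

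The combination of lists was the same for the 6 bound CCT genes, namely an N-Myc promoter and an N-Myc enhancer without JMJD6 or a super-enhancer, which 2465 coding genes shared (12.2%). HSPD1 and HSPE1 had the promoter alone, as 914 coding genes did (4.54%). TCP1 and CCT6A were in none of the lists, like 12609 coding genes (62.6%).

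Other genes of protein folding were read in the same lists, beside the 17.5% of all coding genes with an N-Myc promoter. The closest relatives of the chaperonin genes were not listed, a count of 6 genes that does not stand apart from this background. CCT6B, a paralogue of CCT6A, CCT8L1P and CCT8L2, relatives of CCT8, and MKKS, BBS10 and BBS12, chaperonin-like genes of the Bardet-Biedl complex, gave 0 of 6. By its symbol CCT8L1P is a pseudogene, so the share of coding genes does not cover it.

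The genes that work with CCT were bound in part. Of the subunits of prefoldin, which hands unfolded actin and tubulin to CCT, 2 of 6 were listed (PFDN2 and PFDN5). Of the phosducin-like cofactors of CCT, 2 of 4 were (PDCL3 and TXNDC9). Of the cofactors that assemble tubulin after folding, 2 of 5 were (TBCB and TBCE). Among actin and tubulin genes, the main substrates of CCT, 5 of 11 had an N-Myc promoter (ACTB, ACTG1, TUBB, TUBB2B and TUBB3) and 10 of 11 were named on an N-Myc enhancer. JMJD6 was listed at the promoter of TUBA1A, and at an enhancer named for TUBA1A and one for TUBA1C.

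The other large chaperone families had high counts among genes chosen by name, which are not every gene of these families. Of 10 cytosolic and endoplasmic reticulum HSP70 and HSP90 genes so chosen, 9 had an N-Myc promoter, all but HSPA1A. HSPA1A and HSPA1B, the stress-inducible HSP70 genes, are nearly identical in sequence, so their separate calls are uncertain. Of 11 genes of mitochondrial chaperones and proteases so chosen, 8 had one (HSPA9, GRPEL2, DNAJA3, TRAP1, CLPB, HSCB, LONP1 and CLPP, but not GRPEL1, CLPX or YME1L1). JMJD6 was listed at the promoters of HSPA14, a ribosome-associated HSP70, and CLPB, a mitochondrial disaggregase. It was also listed at enhancers named for HSPA14 and for LONP1. Of the heat shock factor genes HSF2 was listed and HSF1 was not.

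Some bound genes of these families carried the canonical E-box in a promoter peak. The counts below are of genes with it in any of their promoter peaks. The 36.9% of all promoter peaks is a share of single peaks, so the units differ. The hexamer was in a peak of 4 of the 9 bound HSP70 and HSP90 genes (HSPA5, HSPA8, HSPH1 and HSP90B1), of 4 of the 8 bound mitochondrial genes (HSPA9, DNAJA3, TRAP1 and LONP1), of both bound prefoldin genes, and of TBCB and HSF2. In none of the 5 bound actin and tubulin genes, or of the 2 bound phosducin-like genes, did a promoter peak hold it. The difference from the chaperonin genes, 0 of 8, was not tested.

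**Figure D5:**
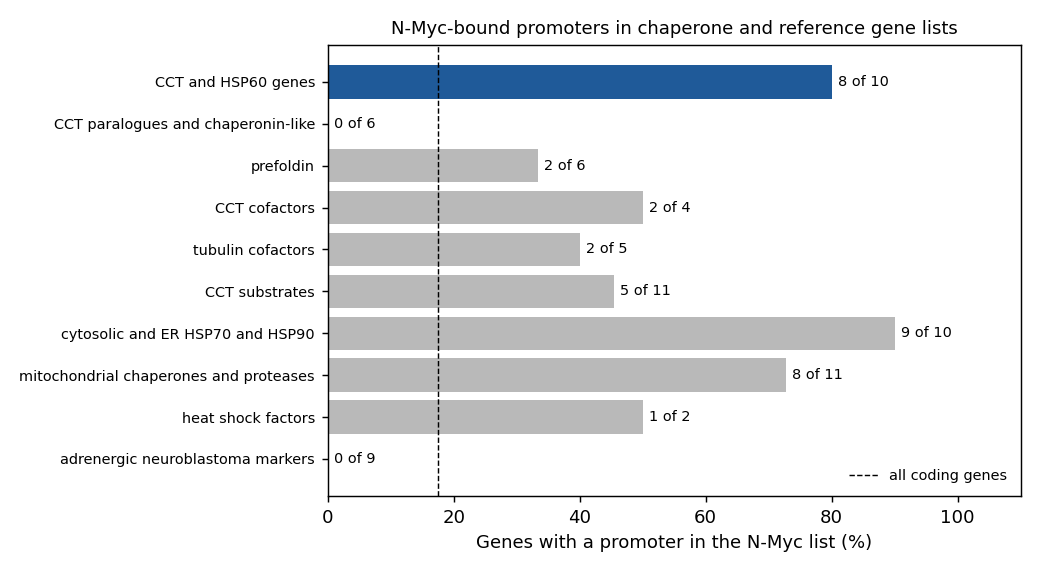
Percent of the genes of each list with a promoter in the N-Myc list, with the counts beside the bars; the chaperonin genes are in blue and the dashed line is the share of all coding genes, 17.5%. The chaperonin genes (8 of 10) and the HSP70 and HSP90 genes (9 of 10) have the longest bars, and the chaperonin-like and adrenergic marker genes have 0.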

How the data were processed

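ChIP-seq of N-Myc (3 samples) and JMJD6 (3 samples) in CHP-134 cells was read from 12 deposited lists of positions, which hold no counts, scores or columns of single samples. Per the labels and the methods of the study, the authors aligned reads to hg19 with BWA, used SAMtools and bedtools, and called peaks against input with MACS2 2.1.1.20160309 (q-value maximum 0.05), keeping those of all 3 replicates. Promoters were 1 kb on each side of RefSeq start sites. Enhancers were H3K27ac peaks, without those within 1 kb of start sites, stitched with ROSE within 12.5 kb, with nearest genes from GREAT. Each step affects what is listed: stitching and GREAT decide which gene an enhancer names, and the common-peak filter removes binding seen in fewer replicates.

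Genes were matched by symbol, with coordinates, canonical start sites and sequence from GRCh37 and GENCODE version 44 lifted to it; 9 of 11 chaperonin promoter centres were within 100 bp of an annotated start site, and the largest distance was 144 bp. Overlap meant at least 1 bp. Motifs were counted on both strands. Python 3.11.15, SciPy 1.17.1, pysam 0.24.0, numpy 2.4.6 and matplotlib 3.10.9 were used, and the overlap, distance and motif procedures were tested on simulated data. No p-values were computed, since the lists hold no replicate values. All 10 genes, genes sharing a peak or enhancer with them, and the genes of the folding lists were named whatever their values. The genes and lists were chosen with earlier results of these data known. Alternatives were other start sites, peak widths, backgrounds and motif definitions.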

Additional observations from a re-analysis of the deposited data

How the results depend on the processing

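No paired analysis was possible because the results come from no test and the lists carry no replicate numbers; leaving out a replicate was likewise not possible. The count of chaperonin genes with an N-Myc promoter was 8 with annotated start sites or with the peak midpoint required in the promoter, and 5 when only peaks of at least 418 bp, the median width of all N-Myc peaks, were kept. The counts for JMJD6 were 0 with annotated start sites and within 10 kb of them. The share of all coding genes with an N-Myc promoter was 17.5%, but 6.36% over all gene symbols, 19.7% with annotated start sites and 18.4% on autosomes alone. The last was chosen after seeing the data. Chaperonin genes with CACGTG numbered 2 instead of 0 when the whole listed promoter was searched, and 2 when CACGCG was also accepted. The share of all promoter peaks with CACGTG was 36.9% over whole peaks and 23.1% within 100 bp of the centre. The heat shock element core was in 4 chaperonin peaks, and in 5 when either arrangement was accepted, a choice also made after seeing the data.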
